A study of Mus musculus with 24 samples.

Results

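The transcripts described here encode subunits of respiratory complexes II to V, the part of mitochondrial oxidative phosphorylation that follows complex I. They were chosen by symbol: Sdha to Sdhd, Cyc1 and every gene whose symbol begins with Uqcr, Cox4i, Cox5, Cox6, Cox7, Cox8 or Atp5. Of 62 such symbols in the mouse RefSeq annotation, 14 were pseudogenes and 48 were protein-coding. Of these 48, 47 had a probe, and 46 were measured among 15875 genes. Complex II contributed 4 genes, complex III 9, complex IV 16 and complex V 17. Cox5b had no probe matched here, and Cox8c, known as a testis isoform of complex IV, was well above background on 0 arrays. The brightest probe stood for each gene, and 45 of the 46 were well above background on all 24 arrays. The exception, Cox7b2, was so on 21.

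Expression was measured with 1-colour oligonucleotide arrays in the area at risk of the anterior heart wall of male C57BL6/J mice. The left anterior descending coronary artery was closed for 45 min and then reopened. The IGF1 groups received 40 ng/g recombinant insulin-like growth factor 1 as a bolus when flow returned followed by 1 µg/g per day through a pump under the skin over 3 days, and PBS with albumin was the vehicle. Tissue was taken after 24, 48 or 168 h, with 4 arrays in each of 6 groups, so the pump had stopped before the last time. The design text calls the controls sham-operated, whereas the label of every vehicle sample names 45 min of ischemia, and the sample labels were followed. The labels name no animals behind the replicates, so each p-value reflects only how these samples vary, which may be technical.

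Complex II, succinate dehydrogenase, passes electrons from the citric acid cycle to ubiquinone. Complex III passes them on to cytochrome c while pumping protons, and complex IV, cytochrome c oxidase, hands them to oxygen and pumps protons too. Complex V, the ATP synthase, lets the protons flow back and makes ATP. Heart muscle is among the tissues richest in these complexes. Complex IV there carries muscle isoforms of several small subunits, encoded by Cox6a2, Cox7a1 and Cox8b, where most other tissues use the products of Cox6a1, Cox7a2 and Cox8a.

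The promoters of these isoform genes are shown because the pairs moved differently in the results below. RefSeq promoter windows (GRCm38.p6, 250 bases before to 50 after the transcription start, written 5′ to 3′ on the strand of the gene) were at hand for 35 of the 46 genes, in 38 windows. In the next 4 windows, capitals mark CG dinucleotides.
Cox8b (chr7:140900397-140900696, minus strand): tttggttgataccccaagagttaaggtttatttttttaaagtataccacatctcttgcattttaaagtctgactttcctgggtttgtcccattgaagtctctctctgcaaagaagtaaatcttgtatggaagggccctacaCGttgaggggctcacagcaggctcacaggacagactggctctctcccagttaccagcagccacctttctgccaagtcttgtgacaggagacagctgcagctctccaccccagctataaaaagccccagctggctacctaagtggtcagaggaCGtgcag
Cox8a (chr19:7217567-7217866, minus strand): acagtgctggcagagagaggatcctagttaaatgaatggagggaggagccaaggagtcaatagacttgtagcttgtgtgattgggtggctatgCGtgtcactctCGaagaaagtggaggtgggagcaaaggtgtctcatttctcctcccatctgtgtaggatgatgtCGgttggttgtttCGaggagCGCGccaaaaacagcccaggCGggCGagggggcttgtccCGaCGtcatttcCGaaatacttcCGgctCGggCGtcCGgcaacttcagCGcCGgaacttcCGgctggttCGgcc
Cox7a1 (chr7:30183921-30184220, plus strand): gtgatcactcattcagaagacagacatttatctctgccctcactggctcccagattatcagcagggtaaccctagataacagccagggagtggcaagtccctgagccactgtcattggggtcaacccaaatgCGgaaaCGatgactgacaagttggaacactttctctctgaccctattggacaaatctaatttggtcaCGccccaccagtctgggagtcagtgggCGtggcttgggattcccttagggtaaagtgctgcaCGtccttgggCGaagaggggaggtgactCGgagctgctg
Cox7a2 (chr9:79759804-79760103, minus strand): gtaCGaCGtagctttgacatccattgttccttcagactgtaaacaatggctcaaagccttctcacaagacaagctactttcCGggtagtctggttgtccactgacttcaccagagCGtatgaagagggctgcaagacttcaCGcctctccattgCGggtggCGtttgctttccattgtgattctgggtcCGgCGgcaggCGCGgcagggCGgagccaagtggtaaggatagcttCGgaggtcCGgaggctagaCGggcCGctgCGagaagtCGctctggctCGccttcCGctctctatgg
The muscle isoform windows held fewer CG than those of their counterparts: Cox8b had 2 CG dinucleotides, against 19 in Cox8a, and Cox7a1 had 7, against 20 in Cox7a2. The median was 19 over the 35 genes and 7 over all 32851 promoter windows of the table. Cox6a2 had no window in the table.

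In the next pair, capitals mark matches to motifs of factors known to control nuclear genes of the respiratory chain. Sdha, the flavoprotein subunit of complex II, is shown because it was among the genes with the smallest p at 24 h, and Cox6a1 because it did not follow the other subunits.
Sdha (chr13:74350191-74350490, minus strand): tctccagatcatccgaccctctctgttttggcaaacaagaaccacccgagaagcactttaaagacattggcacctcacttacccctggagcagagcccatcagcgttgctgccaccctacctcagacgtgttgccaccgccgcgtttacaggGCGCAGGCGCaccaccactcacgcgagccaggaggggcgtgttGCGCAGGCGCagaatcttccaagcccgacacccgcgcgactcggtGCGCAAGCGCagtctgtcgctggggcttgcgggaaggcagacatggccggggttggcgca
Cox6a1 (chr5:115348909-115349208, minus strand): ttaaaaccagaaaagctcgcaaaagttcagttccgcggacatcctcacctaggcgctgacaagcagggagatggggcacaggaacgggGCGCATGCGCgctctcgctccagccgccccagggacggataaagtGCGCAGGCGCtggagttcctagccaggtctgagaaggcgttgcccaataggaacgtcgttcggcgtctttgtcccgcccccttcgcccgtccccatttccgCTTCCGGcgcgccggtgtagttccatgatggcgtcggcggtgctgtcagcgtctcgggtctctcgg
The Sdha window held 3 matches to the NRF1 motif (GCGCA and GCGC with 1 base between them), and the Cox6a1 window held 2, with 1 match to the ETS motif CCGGAAG (bound by GABP). Both strands were searched. The NRF1 motif occurred in 26.3% of the 38 windows of these genes and in 4.60% of all windows. The ETS motif occurred in 34.2% of their windows and in 8.86% of all, and the estrogen-related receptor half-site AAGGTCA in 13.2% and 4.72%. The YY1 motif AANATGGC was found in 13.2%, against 6.05% of all windows. The MEF2 motif (CTA and TAG with 4 bases between them) was found in 0 of the 38, against 3.69% of all windows. Of the genes with a window that passed the test at 24 h described next, 4 of 17 had the NRF1 motif, and of those that did not pass, 6 of 18 had it. A match is a description of these letters and no measured binding.

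All values below are log2 signals with the 75th percentile of their array set to 0, so 1 unit is a doubling, and probes of different genes are not compared in level. Across arrays of 1 group, r over genes was 0.983 to 0.993. Of the 24 arrays, 4 stood apart in the mean of the 46 genes. IGF1 24 h replicate 1 was high, at 7.00, against 6.69 to 6.70 on the other IGF1 24 h arrays. IGF1 168 h replicate 1 was low, at 6.15 (others 6.36 to 6.51), and so was vehicle 168 h replicate 1, at 6.06 (others 6.42 to 6.59). Vehicle 48 h replicate 4 was high, at 6.56 (others 6.31 to 6.36). Counts of genes that rest on these arrays are also given without them where that moves the count, while values of single genes and SEs include them unless stated. The heart label was borne out by the cardiomyocyte markers: 18 of 18 were measured, with array means between 6.81 and 7.59.

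At 24 h, subunit genes of all 4 complexes were higher in IGF1 hearts than in vehicle hearts, and 0 were lower. By limma with Benjamini-Hochberg adjustment over all genes and a threshold of 0.05, 23 of the 46 rose. Over all genes, 16% passed in either direction, 8.76% higher and 7.26% lower. The median difference was 0.34 over the 46 genes and 0.01 over all genes, and 45 of the 46 differences were positive. The genes that rose did so by 0.30 to 0.52 on the log2 scale, which is 1.23- to 1.44-fold. The other 23 had differences between -0.05 and 0.43. In 32 of the 46 the lowest IGF1 array was still above the highest vehicle array, as in 10.1% of all genes. Without IGF1 24 h replicate 1 it was 32 as well, with 11.3% of all genes. Leaving out an IGF1 array cannot lower this count, so this is no check on that array.

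Complex II showed the highest median difference of the 4 complexes, 0.47, and 2 of its 4 genes rose (0 without IGF1 24 h replicate 1). Sdha, the subunit that holds the flavin and oxidises succinate, measured 6.32, 5.95, 5.90 and 5.95 on the IGF1 arrays and 5.59, 5.39, 5.48 and 5.65 on the vehicle arrays (difference 0.51, SE 0.13, limma adjusted p = 0.0118). Every IGF1 array lay above every vehicle array, and replicate 1 was the highest. Sdhc, 1 of the 2 membrane anchors that bind ubiquinone, had the highest difference of the 46 genes, 0.52 (SE 0.14, limma adjusted p = 0.0152). Its signals were 5.65, 5.33, 5.23 and 5.03 in IGF1 hearts, against 4.88, 4.71, 4.69 and 4.86 in vehicle hearts, without overlap. The iron-sulfur subunit gene Sdhb (0.33, SE 0.13) and the other anchor, Sdhd (0.43, SE 0.16), did not pass, although their groups did not overlap either. Sdhb measured 7.87, 7.64, 7.61 and 7.71 on IGF1 arrays, just above the 7.47, 7.24, 7.20 and 7.60 of vehicle arrays.

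In complex III, 7 of 9 genes rose with all arrays in the fit, and 0 without IGF1 24 h replicate 1. The 7 included the cytochrome c1 gene Cyc1 (0.47) and the Rieske iron-sulfur protein gene Uqcrfs1 (0.50), which carry electrons, the hinge protein gene Uqcrh (0.37), and both core proteins. The core protein gene Uqcrc1 read 7.32, 6.93, 6.96 and 6.96 in IGF1 hearts, against 6.77, 6.50, 6.51 and 6.67 in vehicle hearts (difference 0.43, SE 0.11, limma adjusted p = 0.0152). Uqcrc2, the second core protein gene, read 7.37, 7.01, 7.03 and 6.92 in IGF1 hearts and 6.72, 6.48, 6.50 and 6.70 in vehicle hearts (difference 0.48, SE 0.14). In both genes the groups were separate, with the first IGF1 array well above the other three. The small subunit gene Uqcr10 rose by 0.38 (SE 0.11), with 7.79, 7.56, 7.54 and 7.30 on IGF1 arrays against 7.31, 7.17, 7.11 and 7.07 on vehicle arrays, where the lowest IGF1 array lay just under the highest vehicle array. Uqcrb (0.37) and Uqcrq (0.28), both small subunits, did not pass. Uqcrq had 8.53, 8.25, 8.17 and 8.21 in IGF1 hearts and 8.15, 7.94, 7.86 and 8.11 in vehicle hearts, with the highest p in the complex (limma adjusted p = 0.0943).

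Complex IV was the most uneven, with 7 of 16 genes higher (1 without IGF1 24 h replicate 1) and differences between -0.05 and 0.44. Cox4i1, the common isoform of a subunit through which ATP inhibits the enzyme, had the smallest p of the 46 genes. It measured 8.56, 8.26, 8.21 and 8.13 in IGF1 hearts, against 7.95, 7.97, 7.84 and 7.88 in vehicle hearts (difference 0.38, SE 0.09, limma adjusted p = 0.00772). No IGF1 array reached down to the vehicle arrays. The 3 muscle isoform genes rose: Cox8b by 0.44 (SE 0.12), Cox7a1 by 0.44 (SE 0.14) and Cox6a2 by 0.30 (SE 0.10). Of their ubiquitous counterparts, Cox7a2 rose by 0.31 (SE 0.10), while Cox8a differed by 0.03 (SE 0.07) and Cox6a1 by -0.05 (SE 0.07). Cox6b1 (0.38) and Cox7c (0.36), common small subunits, completed the 7.

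The isoform genes differed in how their arrays separated. Cox8b measured 8.21, 7.76, 7.77 and 7.66 on IGF1 arrays and 7.58, 7.34, 7.29 and 7.41 on vehicle arrays. Cox7a1 measured 8.80, 8.43, 8.45 and 8.25 on IGF1 arrays and 8.17, 8.06, 7.97 and 7.98 on vehicle arrays. Both were separate, as was Cox6a2. Cox6a2 measured 9.16, 8.85, 8.87 and 8.76 in IGF1 hearts, against 8.73, 8.52, 8.51 and 8.65 in vehicle hearts, but its difference was 0.19 after quantile normalization (limma adjusted p = 0.193), and its call was lost under 4 of 10 alternative settings and without any of 6 of the 8 arrays. Cox7a2 measured 7.13, 6.71, 6.77 and 6.63 in IGF1 hearts and 6.66, 6.46, 6.47 and 6.40 in vehicle hearts, with 1 IGF1 array under the highest vehicle array. Without IGF1 24 h replicate 1, the limma adjusted p was 0.0923 for Cox8b, 0.176 for Cox7a1 and 0.188 for Cox7a2. Their calls were thus lost as well. Cox8a and Cox6a1, the other ubiquitous genes, overlapped widely. Cox8a measured 6.82, 6.76, 6.71 and 6.71 in IGF1 hearts and 6.83, 6.77, 6.53 and 6.76 in vehicle hearts. Cox6a1 measured 7.73, 7.83, 7.66 and 7.65 in IGF1 hearts and 7.96, 7.80, 7.60 and 7.70 in vehicle hearts.

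Besides Cox8a and Cox6a1, the complex IV genes that did not pass were Cox5a, Cox6c, Cox7b, Cox4i2, Cox6b2, Cox7b2 and Cox7a2l. Cox4i2, an isoform known from lung and vascular smooth muscle and induced by low oxygen in human cells, measured 0.37, 0.22, 0.27 and 0.42 on IGF1 arrays and 0.33, 0.06, 0.16 and 0.28 on vehicle arrays, which overlap. Cox6b2, known from testis and sperm, differed by 0.10 (SE 0.13). Cox7b2, dim on these arrays, varied from -2.85 to -1.40 in IGF1 hearts and from -3.93 to -1.22 in vehicle hearts, so its difference of 0.34 came with an SE of 0.62. Cox7a2l, known as a factor that joins complexes III and IV into supercomplexes, of which C57BL6/J mice are known to carry a shorter form impaired in this, had a difference of 0.26 (SE 0.10).

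In complex V, 7 of 17 genes rose (1 without IGF1 24 h replicate 1) and the differences spanned 0.21 to 0.44. Those that rose encode the alpha subunit of the catalytic head (Atp5a1), the gamma and epsilon subunits of the central stalk (Atp5c1, Atp5e), subunits of the peripheral stalk (Atp5pb, Atp5j) and small membrane subunits (Atp5j2, Atp5k). Atp5pb, subunit b of the peripheral stalk, measured 7.37, 6.99, 7.08 and 6.95 in IGF1 hearts and 6.59, 6.62, 6.69 and 6.74 in vehicle hearts (difference 0.44, SE 0.11, limma adjusted p = 0.0105). Atp5c1, the rotating gamma subunit, measured 8.37, 7.95, 8.08 and 7.95 in IGF1 hearts and 7.87, 7.50, 7.67 and 7.60 in vehicle hearts (difference 0.43, SE 0.11). Neither gene's groups overlapped. Atp5e, subunit epsilon, read 7.87, 7.65, 7.58 and 7.52 on IGF1 arrays and 7.39, 7.36, 7.19 and 7.28 on vehicle arrays, also without overlap (difference 0.35, SE 0.10). The genes of the c-ring, Atp5g1 (0.32, SE 0.15), Atp5g2 (0.22, SE 0.08) and Atp5g3 (0.25, SE 0.14), which encode 1 mature protein from 3 genes, did not pass. Atp5g3 measured 8.07, 7.79, 7.82 and 7.92 in IGF1 hearts and overlapped the 7.78, 7.44, 7.50 and 7.88 of vehicle hearts.

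**Figure D1:**
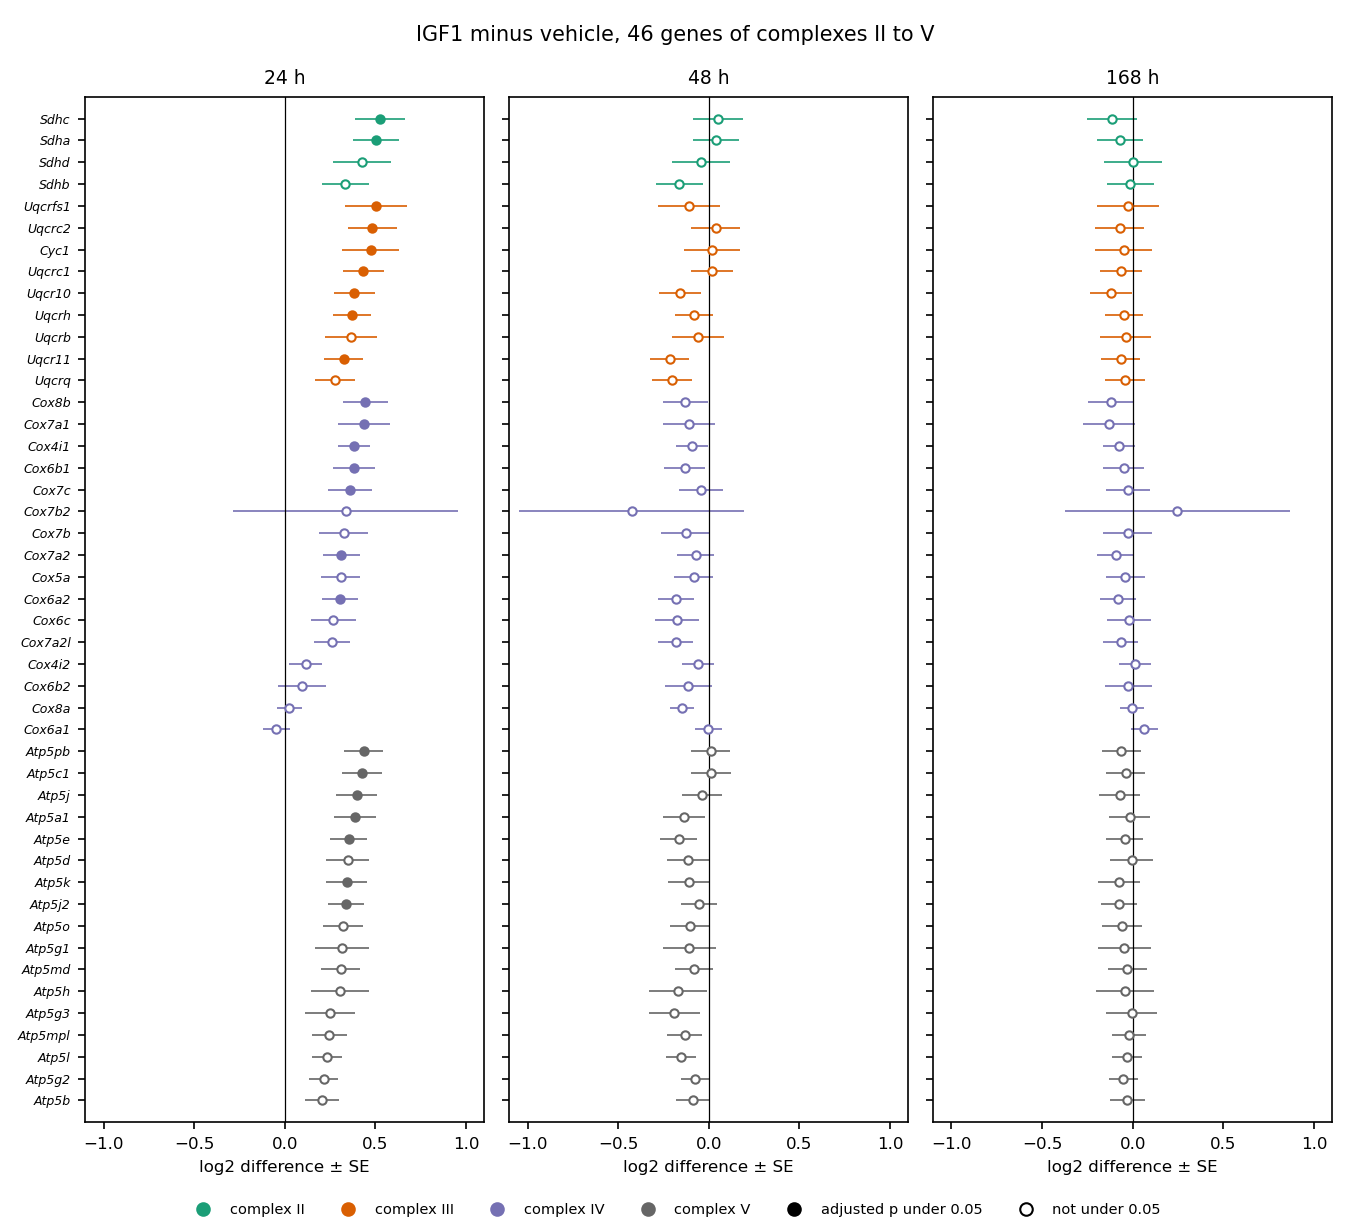
Log2 difference of IGF1 minus vehicle (horizontal axis, points with SE of the limma fit, 4 arrays a group) for the 46 genes, grouped by complex, at 24, 48 and 168 h; filled points passed an adjusted p of 0.05. At 24 h, 45 of 46 points lie right of 0 and 23 are filled, and at 48 and 168 h 0 are filled.

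The direction at 24 h was shared by the arrays, while the number of calls was not. Each of 4 slides carried 1 IGF1 and 1 vehicle array of this time, and the median difference within slides 1 to 4 was 0.45, 0.33, 0.39 and 0.15. On all 4 slides, 41 of the 46 genes were higher in the IGF1 array, compared with 19.3% of all genes. The 5 that were not are Cox6a1, Cox6b2, Cox7a2l, Cox7b2 and Cox8a. With slide as a block 34 genes rose, and 3436 of all 15875 genes passed in either direction. Without IGF1 24 h replicate 1, the median difference was 0.26 and 45 of 46 differences stayed positive, but only Cox4i1 (0.29, limma adjusted p = 0.0331) and Atp5pb (0.34, limma adjusted p = 0.0498) passed. That is 2 of 46, where 3.72% of all genes were higher and 3.86% lower. The count was 5 without vehicle 24 h replicate 2, 6 without vehicle 24 h replicate 3 and 15 without IGF1 24 h replicate 2. Over all 15875 genes, 1319, 1888 and 2176 passed in either direction in these fits. A fit on the 24 h arrays alone left 1 gene, Sdha (limma adjusted p = 0.0437), where 947 of all 15875 genes passed. With no filter on dim probes 11 of 47 passed, where 1755 of all 23462 genes did. Each of these counts of subunit genes was of higher genes only.

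Markers of heart muscle cells moved with these genes at 24 h. Of 18 cardiomyocyte markers, 9 rose and 1 fell, with a median difference of 0.42 (3 rose and 0 fell without IGF1 24 h replicate 1, median 0.35), and their array means ran from 7.25 to 7.59 in IGF1 hearts and from 6.81 to 7.20 in vehicle hearts. Those with the smallest p were Myoz2 (0.74), Atp2a2 (0.78), Mb (0.45) and Ryr2 (0.73), and Csrp3 was the marker that fell (-0.34). Within slides 1 to 4 the median difference of the markers was 0.53, 0.53, 0.44 and 0.04. Of 9 dendritic cell and MHC class II markers 8 fell, with array means of -0.33 to 0.15 in IGF1 hearts and 0.92 to 1.28 in vehicle hearts, and 8 fell without IGF1 24 h replicate 1 as well. Of 12 monocyte and macrophage markers 6 fell and 2 rose, with array means of 2.59 to 2.98 in IGF1 hearts and 3.07 to 3.24 in vehicle hearts. Without IGF1 24 h replicate 1, 5 of them fell and 2 rose. Over all genes, 8.76% were higher and 7.26% lower at 24 h with all arrays, and 3.72% and 3.86% without that array. The part of cell composition in the subunit results was not tested, and in these bulk samples fewer cells of a type and less RNA per cell cannot be told apart.

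**Figure D2:**
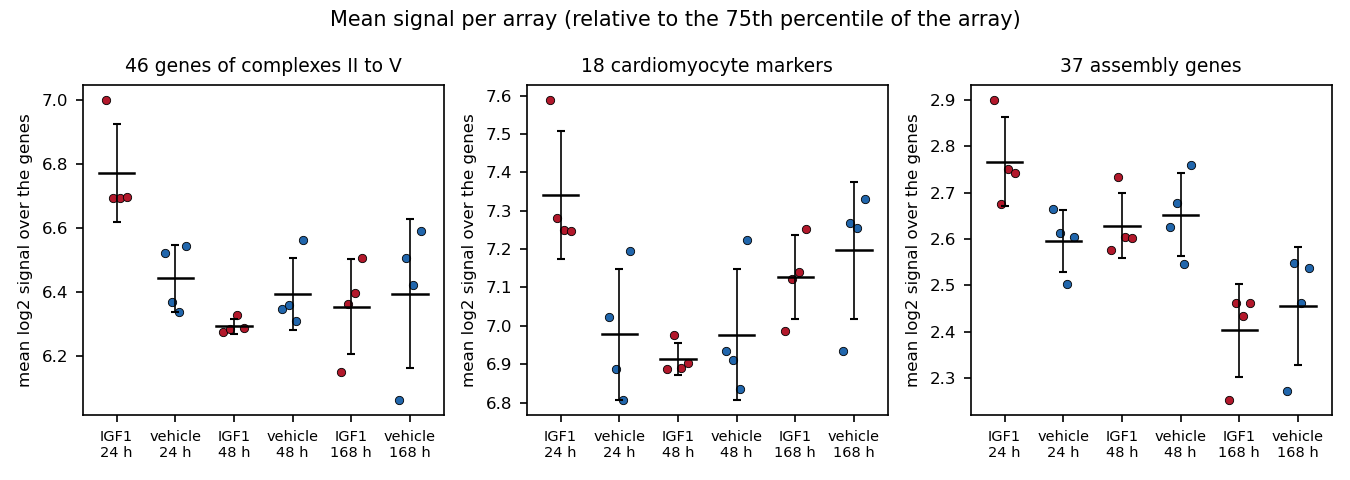
Mean log2 signal per array (points, 4 arrays in each of 6 groups, with line for the mean and bar for the SD) over the 46 subunit genes, 18 cardiomyocyte markers and 37 assembly genes, IGF1 left of vehicle at each time. IGF1 24 h replicate 1 lies at 7.00 for the subunit genes, and replicate 1 of both 168 h groups lies lowest in its group.

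At 48 h and 168 h, no subunit gene passed in the comparison of IGF1 with vehicle. At 48 h, 0 of 46 passed by limma (1 at an unadjusted p under 0.05) and 0.0126% of all genes did, all lower. The median difference was -0.11, and 39 of 46 differences were negative. This median was -0.01 after quantile normalization and -0.05 without vehicle 48 h replicate 4. Cox4i1 shows the change against 24 h, with 7.70, 7.69, 7.66 and 7.68 in IGF1 hearts and 7.81, 7.81, 7.63 and 7.84 in vehicle hearts, which overlap. At 168 h, 0 of 46 passed (0 at an unadjusted p under 0.05), 0% of all genes did, and the median difference was -0.04. Sdha then measured 5.28, 5.60, 5.55 and 5.81 in IGF1 hearts and 5.28, 5.79, 5.64 and 5.81 in vehicle hearts. Without vehicle 168 h replicate 1 the median was -0.16, without IGF1 168 h replicate 1 or vehicle 168 h replicate 4 it was 0.02, and 0 genes passed in each case.

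Whether the IGF1 difference itself changed with time was tested directly. From 24 h to 168 h it became smaller for 6 of the 46 genes and larger for 0, where 11.1% of all genes passed, 5.35% smaller and 5.73% larger in the signed difference. These were Sdhc (change -0.64, SE 0.20), Sdha (-0.58, SE 0.18), Cox8b (-0.56, SE 0.17), Uqcr10 (-0.50, SE 0.16), Atp5pb (-0.50, SE 0.15) and Cox4i1 (-0.46, SE 0.13), with limma adjusted p between 0.0259 and 0.0496. From 24 h to 48 h the change passed for 0 genes, although 38 had an unadjusted p under 0.05, with a median change of -0.44 and 0.0693% of all genes passing, 0.0567% lower and 0.0126% higher. Between 48 h and 168 h it passed for 0 (0 unadjusted) and 0% of all genes. The F-test over the 3 times was passed by 1 gene, Cox4i1 (limma adjusted p = 0.0368), and by 5.6% of all genes.

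These counts rested on single arrays. For 168 h against 24 h, the count of 6 became 31 without vehicle 168 h replicate 1 and 11 without IGF1 24 h replicate 4. It became 0 without IGF1 24 h replicate 1 or vehicle 168 h replicate 2, and 1 without vehicle 24 h replicate 2 or 3, vehicle 168 h replicate 3 or 4, or IGF1 168 h replicate 1, 2 or 3. It was 4 with the replicate block and 4 as well without vehicle 24 h replicate 4 or IGF1 168 h replicate 4. In these fits the median change of the 46 genes lay between -0.50 and -0.30. Over all 15875 genes, 1759 passed this change with all arrays. That number was 2372 without vehicle 168 h replicate 1 and 1851 without IGF1 24 h replicate 4. It was 947 without IGF1 24 h replicate 1 and 1059 without vehicle 168 h replicate 2. It was 1033 to 1476 in the fits with 1 subunit gene and 1352 to 2106 in those with 4. For 48 h against 24 h, 2 genes passed without vehicle 48 h replicate 3, where 275 of all genes did, against 11 with all arrays. The F-test count became 28 without vehicle 168 h replicate 1, 5 without vehicle 48 h replicate 3 and 3 without IGF1 24 h replicate 4. It was 0 in 13 of the 24 fits that left out 1 array. Over all genes, the F-test was passed by 889 with all arrays and by 1418, 1182 and 836 in the fits named. In the 13 fits with 0 subunit genes, 342 to 771 of all genes passed.

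The muscle isoform of complex IV was then set against its ubiquitous counterpart on the same array. Only the change of this within-array difference between groups is read, since the level depends on the 2 probes. At 24 h, Cox6a2 minus Cox6a1 was 1.43, 1.01, 1.22 and 1.11 on IGF1 arrays and 0.77, 0.72, 0.92 and 0.96 on vehicle arrays. Every IGF1 value was higher, by 0.35 in the mean (SE 0.09, limma adjusted p = 0.0154). Cox8b minus Cox8a was 1.39, 1.00, 1.06 and 0.95 on IGF1 arrays, again above the 0.75, 0.58, 0.76 and 0.65 of vehicle arrays, by 0.42 in the mean (SE 0.12, limma adjusted p = 0.0276). Cox7a1 minus Cox7a2 was 1.67, 1.72, 1.68 and 1.62 in IGF1 hearts and 1.51, 1.60, 1.50 and 1.58 in vehicle hearts. That change, 0.12 (SE 0.09), missed the threshold (limma adjusted p = 0.351), although the groups did not overlap. Both partners of this pair rose at 24 h.

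The exact permutation test, two-sided over the 4 arrays of each group, gave p = 0.0286 for each of these 3 pairs, the smallest p it allows. This p is unadjusted and follows from the lack of overlap, so it adds nothing to it. For the fourth isoform pair, Cox4i2 minus Cox4i1, the change was -0.27 (SE 0.09, limma adjusted p = 0.0503), and it passed with slide as a block (adjusted p = 0.0257) and with the replicate block (adjusted p = 0.0204). In all, 2 of the 12 pair comparisons of IGF1 with vehicle passed, and 0 of them at 48 h or 168 h. At 48 h, Cox6a2 minus Cox6a1 was 0.36, 0.39, 0.38 and 0.43 in IGF1 hearts, all below the 0.63, 0.46, 0.53 and 0.65 of vehicle hearts, but the change of -0.18 had a limma adjusted p of 0.597. Lacking overlap, this opposite change has the same exact permutation p of 0.0286. The 2 passing pairs became 0 without IGF1 24 h replicate 1, where the changes were 0.27 (Cox6a2, limma adjusted p = 0.0711) and 0.32 (Cox8b, limma adjusted p = 0.12), and 0 with the 24 h arrays alone. Without vehicle 24 h replicate 2 both calls were lost too (limma adjusted p = 0.0583 and 0.0824), while Cox4i2 minus Cox4i1 passed. Without vehicle 24 h replicate 4 (limma adjusted p = 0.0526) or with no filter on dim probes (limma adjusted p = 0.0501), the Cox8b call was lost. From 24 h to 168 h the IGF1 difference of Cox6a2 minus Cox6a1 changed by -0.50 (SE 0.13, limma adjusted p = 0.022). That call was lost with only the arrays of the groups compared (adjusted p = 0.0581), without IGF1 24 h replicate 1 (adjusted p = 0.0501) and without vehicle 24 h replicate 2 (adjusted p = 0.0503).

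**Figure D3:**
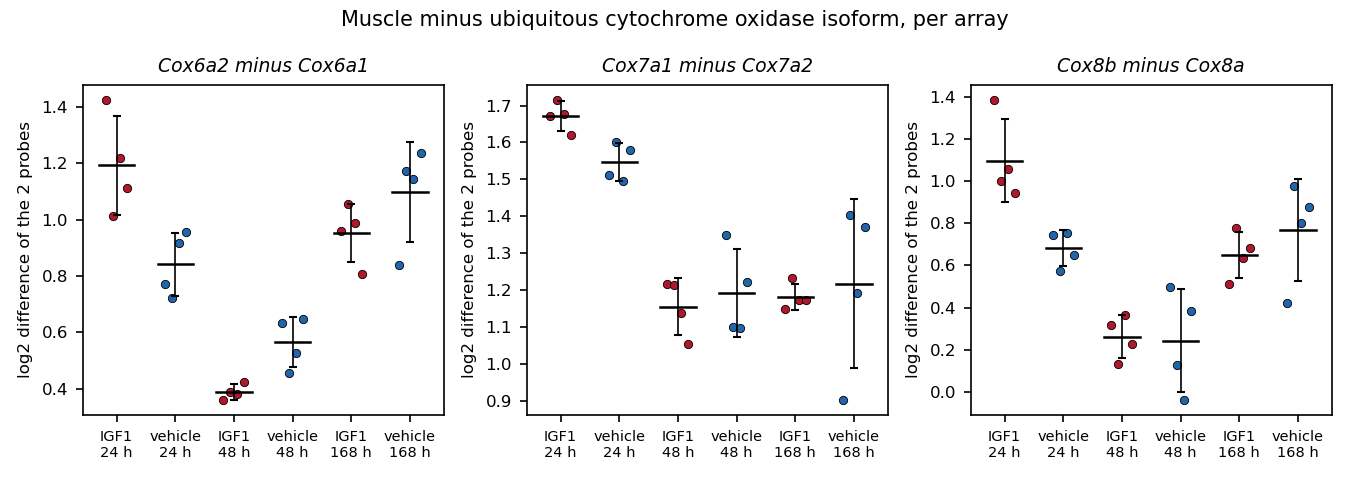
Log2 signal of the muscle isoform probe minus that of the ubiquitous isoform probe on each array (points, 4 per group, line for the mean, bar for the SD), IGF1 left of vehicle at each time. At 24 h the IGF1 points lie above the vehicle points in all 3 pairs, and at 48 h Cox6a2 minus Cox6a1 is lowest in both treatments.

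Each treatment was also compared over time. In IGF1 hearts, 40 of the 46 were lower at 48 h than at 24 h and 1 was higher, with a median difference of -0.53. Over all genes 37.6% passed in either direction, 21.3% lower and 16.3% higher, and the median was -0.08. After quantile normalization the median of the 46 was -0.34, with 32 lower and 2 higher. Complexes II, III, IV and V contributed 3 of 4, 9 of 9, 11 of 16 and 17 of 17 genes that fell. Without IGF1 24 h replicate 1 it was 15 of 17 in complex V, and the other complexes kept their counts. In vehicle hearts, 1 fell and 2 rose between the same times, where 22.7% of all genes passed, 11.5% lower and 11.2% higher. The median there was -0.07. These 2 counts are of separate tests, and the test of their difference is the one given above, which passed for 0 genes between 24 h and 48 h.

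In IGF1 hearts at 48 h, Cox7a1 had fallen most among the genes that passed, by 0.89 (SE 0.14): it measured 7.66, 7.61, 7.55 and 7.53 at 48 h, against 8.80, 8.43, 8.45 and 8.25 at 24 h. Cox8b, also a muscle isoform gene, had fallen by 0.83 (SE 0.12), with 7.07, 6.99, 7.10 and 6.93 at 48 h and 8.21, 7.76, 7.77 and 7.66 at 24 h. The arrays of the 2 times were far apart in both genes. Cox4i1 had the smallest p in this comparison, with 7.70, 7.69, 7.66 and 7.68 at 48 h, against 8.56, 8.26, 8.21 and 8.13 at 24 h (difference -0.61, SE 0.09, limma adjusted p = 2.76e-05). Cox6a1 was the gene that rose, by 0.22 (SE 0.07, limma adjusted p = 0.0212), to 7.97, 8.00, 7.90 and 7.90 at 48 h, against 7.73, 7.83, 7.66 and 7.65 at 24 h. Its limma adjusted p was 0.0581 without IGF1 24 h replicate 3, 0.06 without IGF1 24 h replicate 4, 0.0502 without IGF1 48 h replicate 1 and 0.0602 without IGF1 48 h replicate 2. Cox7b2, with a difference of -0.87 (SE 0.62), did not pass. Of 18 cardiomyocyte markers 11 fell and 0 rose, with a median of -0.42 (9 fell and 1 rose without IGF1 24 h replicate 1), and of 10 fibroblast markers 8 rose (9 without that array). Their part in these results was not tested. Without IGF1 24 h replicate 1, 38 subunit genes were lower and 2 higher. On slides 2 and 3, which held both times, the median differences were -0.45 and -0.43, and with slide as a block 39 were lower and 1 higher.

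The 3 vehicle genes that passed between 24 h and 48 h were all in complex IV. Cox7a2l rose by 0.58 (SE 0.10, limma adjusted p = 0.000349), to 6.10, 6.21, 6.32 and 6.26 at 48 h, against 5.80, 5.59, 5.40 and 5.80 at 24 h. Cox4i2 fell by 0.35 (SE 0.09), to -0.16, -0.14, -0.27 and -0.01 at 48 h, against 0.33, 0.06, 0.16 and 0.28 at 24 h. The times did not overlap in either gene. Cox8a passed narrowly (0.19, SE 0.07, limma adjusted p = 0.0484), with 6.77, 6.91, 7.02 and 6.93 at 48 h overlapping 6.83, 6.77, 6.53 and 6.76 at 24 h. Its call was lost under 6 of 10 alternative settings, the replicate block among them (limma adjusted p = 0.0575), and without any of 6 of the 8 arrays, the exceptions being vehicle 24 h replicate 1 and vehicle 48 h replicate 1. Within the 3 slides that held both times, the median difference of the 46 genes was -0.01, -0.03 and 0.02, and with slide as a block 3 rose and 1 fell. Without vehicle 48 h replicate 4, 1 rose and 1 fell.

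**Figure D4:**
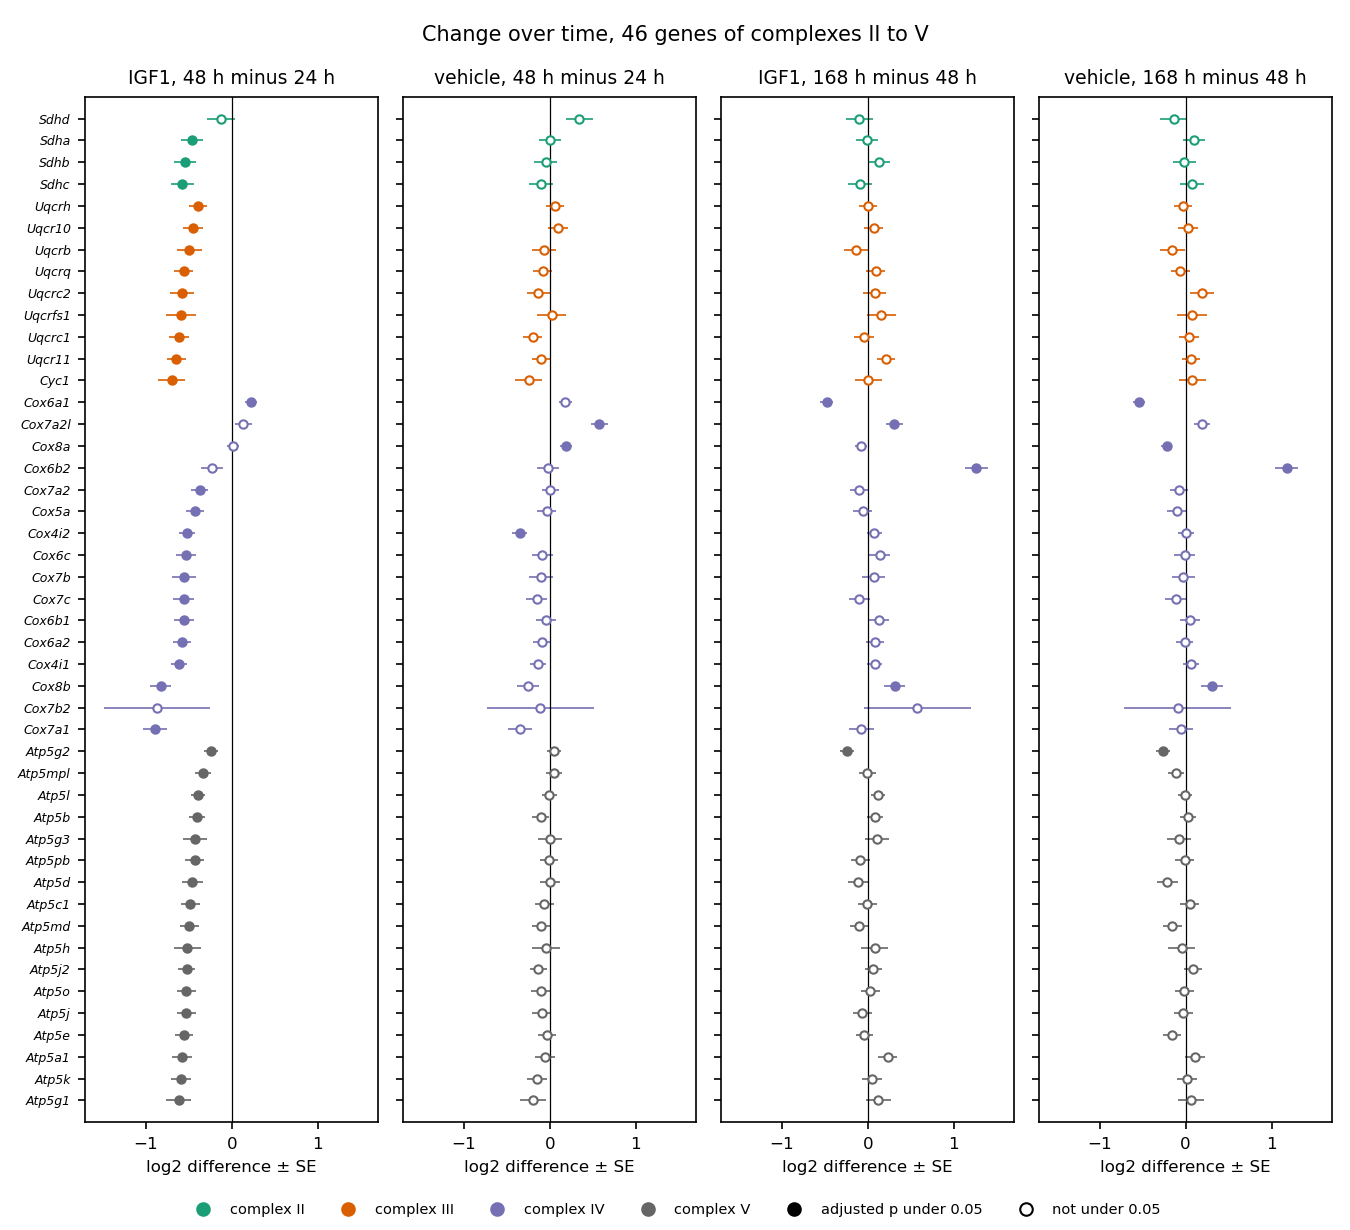
Log2 difference between successive times (horizontal axis, points with SE of the limma fit, 4 arrays a group) for the 46 genes by complex, with IGF1 left of vehicle for each step; filled points passed an adjusted p of 0.05. In the first panel 41 points are filled and in the second 3, and in the 168 h panels Cox6b2 lies far to the right and Cox6a1 to the left.

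Between 48 h and 168 h few of the genes passed in either treatment, and 4 genes passed in the same direction in both: Cox6b2 and Cox8b rose, and Cox6a1 and Atp5g2 fell. In IGF1 hearts 3 rose and 2 fell, where 48.8% of all genes passed, 22.6% higher and 26.2% lower. In vehicle hearts 2 rose and 3 fell, where 53.2% of all genes passed, 25% higher and 28.1% lower. Cox6b2, the testis isoform, rose by 1.26 (SE 0.13) in IGF1 hearts, to -0.42, -0.44, -0.45 and -0.67 at 168 h, against -1.86, -1.72, -1.60 and -1.84 at 48 h. In vehicle hearts it rose by 1.17 (SE 0.13), to -0.45, -0.40, -0.15 and -0.89, against -1.69, -1.77, -1.55 and -1.57. No array of one time overlapped the other. Cox6a1 fell by 0.48 (SE 0.07) in IGF1 hearts, to 7.33, 7.43, 7.55 and 7.54 at 168 h, against 7.97, 8.00, 7.90 and 7.90 at 48 h. In vehicle hearts it fell by 0.54 (SE 0.07), to 7.32, 7.42, 7.45 and 7.42 at 168 h, against 7.90, 8.01, 7.98 and 7.89 at 48 h. Cox6b2 and Cox6a1 kept their direction and their calls in every alternative run for this step.

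The other calls between 48 h and 168 h were less firm. Cox8b rose by 0.31 (SE 0.12) in each treatment, but its adjusted p was 0.679 in IGF1 hearts and 0.493 in vehicle hearts with slide as a block, and 0.055 and 0.0572 with the replicate block. In all, its call was lost under 4 of 10 settings in IGF1 hearts and 5 of 10 in vehicle hearts. Cox7a2l rose by 0.31 (SE 0.10) in IGF1 hearts (adjusted p = 0.564 with slide as a block), and Atp5g2, a c-ring gene, fell by 0.24 (SE 0.08) in IGF1 and by 0.26 (SE 0.08) in vehicle hearts. Cox8a fell by 0.22 (SE 0.07) in vehicle hearts. IGF1 arrays of the 2 times shared no slide, and the vehicle arrays shared only slide 4, where the median difference was 0.02. With slide as a block 1 rose and 2 fell in IGF1 hearts, and 1 rose and 3 fell in vehicle hearts. After quantile normalization the split was 9 higher and 1 lower in IGF1 hearts and 12 higher and 1 lower in vehicle hearts. A fit on the compared arrays alone gave 1 higher and 1 lower in vehicle hearts. Without IGF1 168 h replicate 3, 2 rose and 1 fell in IGF1 hearts. Without vehicle 48 h replicate 4 the vehicle counts were unaltered, at 2 higher and 3 lower. Without replicate 1 at 168 h the counts were 3 higher and 1 lower in IGF1 hearts and 3 higher and 3 lower in vehicle hearts. Of 10 fibroblast markers 9 rose in this step in each treatment, with array means of 5.56 to 5.68 at 168 h against 4.07 to 4.42 at 48 h in IGF1 hearts and 5.48 to 5.65 against 4.11 to 4.42 in vehicle hearts. Their part in the results was not tested.

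Over the whole course, from 24 h to 168 h, 40 genes fell and 2 rose in IGF1 hearts, where 58.5% of all genes passed, 33.9% lower and 24.6% higher. In vehicle hearts 5 fell and 2 rose, where 60.2% of all genes passed, 32.1% lower and 28.1% higher. The genes that rose were Cox6b2 and Cox7a2l in both treatments. Cox7a2l rose by 0.44 (SE 0.10) in IGF1 hearts and by 0.77 (SE 0.10) in vehicle hearts, where the arrays measured 6.41, 6.42, 6.46 and 6.36 at 168 h, against 5.80, 5.59, 5.40 and 5.80 at 24 h. Those that fell in vehicle hearts were Cox7a1 (-0.40), Cox6a1 (-0.36), Cox4i2 (-0.34), Atp5md (-0.26) and Atp5g2 (-0.22). The fall of Cox7a1 was lost without vehicle 168 h replicate 1 (adjusted p = 0.111) or vehicle 24 h replicate 1 (adjusted p = 0.0588), and after quantile normalization (adjusted p = 0.178) or with the compared arrays alone (adjusted p = 0.0981), and leaving out either array left 2 lower and 2 higher genes. Without vehicle 168 h replicate 4, 8 were lower and 2 higher. In IGF1 hearts the largest fall was that of Cox7a1, -0.96 (SE 0.14), and the median over the 46 genes was -0.47, against -0.09 over all genes. Without IGF1 24 h replicate 1 the count there was 38 lower and 2 higher, and without IGF1 168 h replicate 1 it was 37 lower and 2 higher. Within slides 1 and 4 the IGF1 median was -0.77 and -0.22, and the vehicle median -0.27 and 0.03.

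The counts for this interval changed with the scaling. After quantile normalization 17 genes fell and 3 rose in IGF1 hearts, and 1 fell and 15 rose in vehicle hearts. The median difference then was -0.19 in IGF1 hearts and 0.15 in vehicle hearts. The direction of the small vehicle changes therefore depended on the scaling, with Cox8a at 0.24 after quantile normalization and -0.03 before it. Under that scaling the difference of Cox6a1 between 168 h and 24 h was 0.011 in IGF1 hearts and -0.17 in vehicle hearts, neither passing, whereas the rises of Cox6b2 and Cox7a2l kept their calls.

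**Figure D5:**
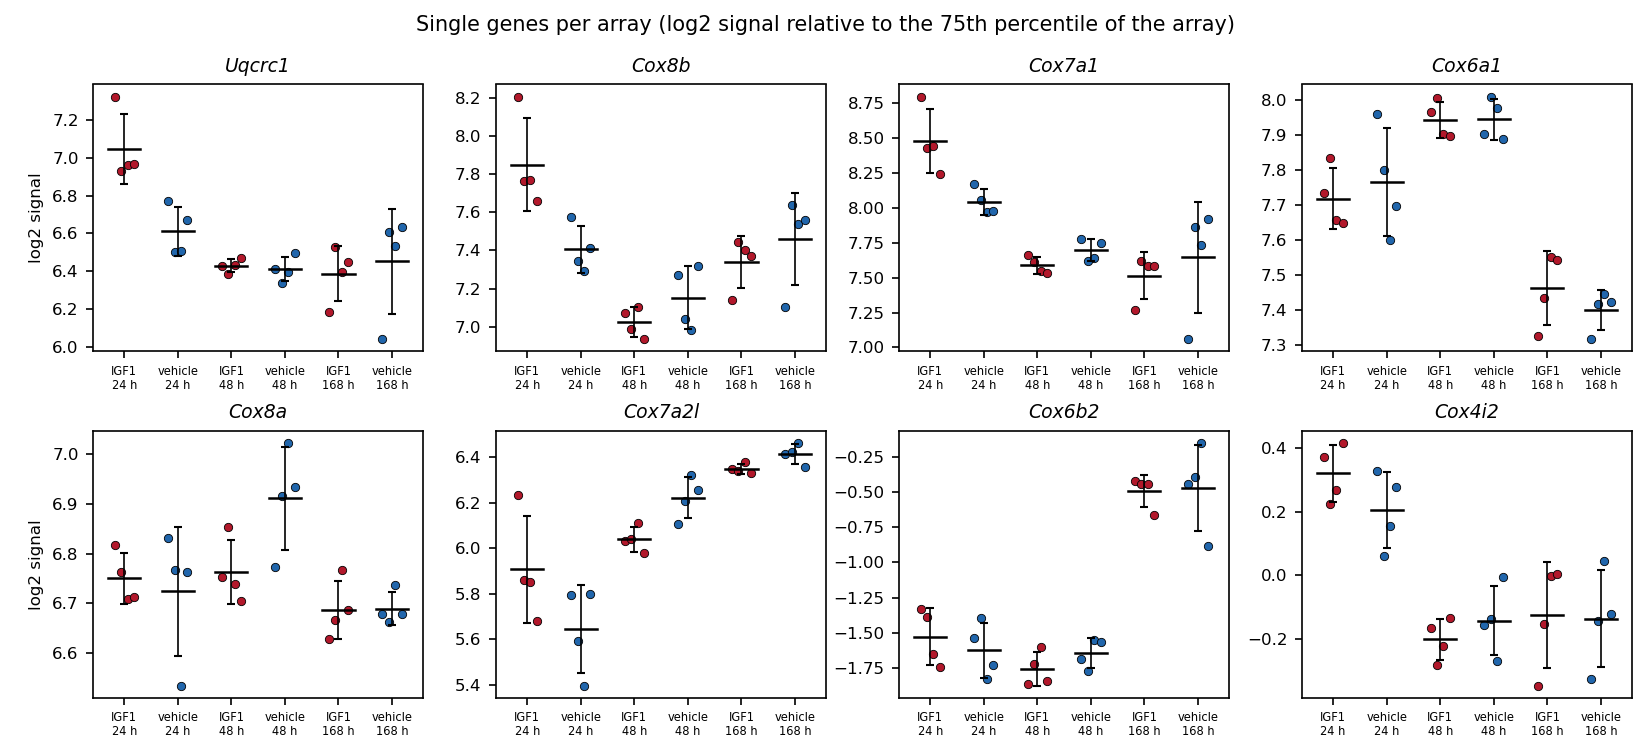
Log2 signal per array (points, 4 per group, line for the mean, bar for the SD) of 8 genes, IGF1 left of vehicle at each time; each panel has its own axis. Uqcrc1, Cox8b and Cox7a1 are highest in IGF1 hearts at 24 h, Cox6a1 is lowest at 168 h, Cox6b2 is highest at 168 h in both treatments, and Cox7a2l is higher at 168 h than at 24 h in both treatments.

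Of 24 comparisons of the isoform pairs over time, 16 passed. In the same comparisons of times, 22.7% to 60.2% of all genes passed in either direction. In IGF1 hearts from 24 h to 48 h, the muscle isoform fell against the ubiquitous one in each pair: by 0.84 for Cox8b (SE 0.12), by 0.80 for Cox6a2 (SE 0.09) and by 0.52 for Cox7a1 (SE 0.09). In vehicle hearts the same differences fell by 0.44 (SE 0.12), 0.28 (SE 0.09) and 0.35 (SE 0.09). From 48 h to 168 h the Cox6a2 difference rose by 0.56 in IGF1 hearts and 0.53 in vehicle hearts, and the Cox8b difference by 0.39 and 0.53. The Cox7a1 difference did not pass in that step, with a change of 0.03 in IGF1 hearts and 0.02 in vehicle hearts (SE 0.09 each). The count was 14 to 16 when single arrays were left out and 17 with the replicate block.

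Genes that build or serve the complexes were listed separately. Of 37 measured assembly factors of complexes II to V, 5 were higher in IGF1 than in vehicle hearts at 24 h and 0 were lower, with a median of 0.18, where 8.76% of all genes were higher. Without IGF1 24 h replicate 1 it was 1 of 37 (0 lower), where 3.72% of all genes were higher. They were Higd2a (0.45), a factor of complex IV and supercomplexes, Cox14 (0.28) and Cmc1 (0.22), which act early in complex IV assembly, Atpaf1 (0.44), a chaperone of the ATP synthase, and Sdhaf1 (0.23), which helps insert iron-sulfur clusters into complex II. At 48 h and 168 h 0 of the 37 passed (2 and 1 at an unadjusted p under 0.05). From 24 h to 48 h, 10 of them fell and 1 rose in IGF1 hearts, where 21.3% of all genes fell and 16.3% rose, and without IGF1 24 h replicate 1 it was 6 and 3. In vehicle hearts 2 fell and 7 rose, where 11.5% of all genes fell and 11.2% rose, and without vehicle 48 h replicate 4 it was 1 and 4. From 48 h to 168 h, 15 of them fell and 1 rose in IGF1 hearts, where 26.2% of all genes fell, and 10 fell without IGF1 168 h replicate 1. In vehicle hearts 14 fell and 2 rose, where 28.1% of all genes fell, with 10 falling without vehicle 168 h replicate 1 and 11 without vehicle 48 h replicate 4. Cox16, known in human cells to help mature a catalytic subunit of complex IV, fell by 0.71 (SE 0.08) in IGF1 hearts and by 0.90 (SE 0.08) in vehicle hearts. Coa7, another complex IV assembly factor, fell by 0.87 (SE 0.12) in IGF1 hearts and by 0.64 (SE 0.12) in vehicle hearts. The list includes Cox7a2l, which is also a subunit gene by symbol.

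Of 23 electron carrier and carrier-partner genes, 12 rose at 24 h with IGF1 and 0 fell, with a median of 0.41, where 8.76% of all genes rose. Without IGF1 24 h replicate 1, 3 rose and 0 fell (median 0.34), where 3.72% of all genes rose. Etfdh, which feeds electrons from fatty acid oxidation to ubiquinone, differed by 0.94 (SE 0.19, limma adjusted p = 0.00349). Coq9 (0.89) and Coq2 (0.38), of ubiquinone synthesis, and Etfa (0.58), a subunit of the electron transfer flavoprotein, also rose. Of 23 regulators of mitochondrial biogenesis, 8 rose and 0 fell, with a median of 0.20, and without IGF1 24 h replicate 1, 4 rose and 0 fell (median 0.16). These included Ppargc1b (0.68), a coactivator of respiratory chain genes, Mef2d (0.39), a muscle transcription factor, Pparg (0.47), a lipid-sensing receptor, and Polrmt (0.30), the mitochondrial RNA polymerase. In both lists 0 genes passed at 48 h (0 unadjusted) or at 168 h (0 unadjusted). These lists were drawn up with earlier results of these data known, and their counts are descriptions.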

How the data were processed

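Per the file headers, Agilent Feature Extraction 12.0.3.2 made the deposited scanner output of the 24 arrays. The processed signal is a linear intensity, per the file headers corrected for background on each array, with no scaling across arrays. The authors also deposited a table of log2 values of 33957 probes, which after 1 offset per probe equal the log2 values computed here (largest residual SD 2.19e-06, column medians -0.0557 to 0.0527). How its probes were chosen and centred is not given in the sources used here.

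Control spots and outlier spots were left out (53 to 130 of 59305 spots an array). No array had a saturated spot (0 in all), and 52.8 to 62.9% of spots were well above background. Processed signals were turned to log2, and each array's 75th percentile was subtracted. Of 56605 probes, 33767 (59.7%) matched 1 gene through RefSeq accessions. The brightest probe well above background on at least 4 arrays stood for its gene, and of 12 subunit genes with several such probes, 0 had a probe of opposite sign at 24 h. Sizes differed there: Atp5b read 0.21 on the chosen probe and 0.47 on both others, and Sdhb 0.33 and 0.51. At 48 h, Atp5a1, Atp5b, Atp5g1, Atp5pb and Sdhb each had a probe of opposite sign, as had Uqcrb at 168 h. The fit used R 4.3.3 and limma 3.58.1 (lmFit and eBayes, two-sided) on 24 arrays, with a mean for each group and 18 residual degrees of freedom. P-values were adjusted by Benjamini-Hochberg over all genes and called at 0.05. Errors of differences are SE of the fit, and 4 arrays a group limit the precision. The fit was tested on simulated data. Isoform differences were added as rows of the same fit, with an exact permutation test beside it.

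Same-numbered IGF1 and vehicle arrays had deviations from their group means that correlated most at 168 h (0.19 to 0.50). The correlations were -0.05 to 0.13 at 24 h and -0.00 to 0.11 at 48 h. Every pair exceeded 0.1 at 168 h only, and the correlations were not tested. The replicate number is also the slide at 24 h. At 168 h, replicates 1 to 3 of both treatments lay on slide 1, and replicate 4 of both, the pair with 0.50, on slide 4. Both arrays of each pair at 168 h thus shared a slide, so shared slide and replicate pairing cannot be told apart for any of them. The alternatives were normexp background correction (offset 50), quantile normalization, other filters and probe rules, the authors' table, slide and replicate blocks, array weights, fits on the compared arrays alone and leaving out each array. The genes, marker lists (206 genes, 195 measured) and the rule for named genes were chosen with earlier results of these data known. That rule gave values of every array for the 8 isoform genes and, in each complex, for the genes with the 2 smallest and the largest p at 24 h and the smallest p of the F-test, and named up to 4 genes of other lists by p and those with the smallest p or largest change over time. A few others are named because they passed.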

Additional observations from a re-analysis of the deposited data

Results flagged for a closer look

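Of 276 combinations of a subunit gene and a group, each with 4 arrays, 28 (10.1%) held an array whose gap to the nearest of the others, as a share of the group's range, exceeded Dixon's critical value for 4 samples. Of 24 combinations of an isoform pair and a group, 0 did. Chance alone gives about 1 in 20 groups, and genes of 1 array are not independent. Vehicle 168 h replicate 1 was the low array for 8 genes: Atp5d at 4.94, Atp5j2 at 6.44, Atp5k at 6.7, Atp5mpl at 6.11, Atp5pb at 6.29, Cox6a2 at 8.15, Uqcr11 at 6.76 and Uqcrc1 at 6.04. IGF1 168 h replicate 1 was the low array for 6 genes: Atp5d at 5.21, Atp5e at 6.89, Atp5j2 at 6.49, Atp5pb at 6.35, Cox7a1 at 7.27 and Cox7a2 at 6.12. IGF1 24 h replicate 1 was the high array for 5 genes: Atp5j at 7.34, Atp5o at 8.55, Cyc1 at 7.4, Sdha at 6.32 and Uqcrc1 at 7.32. Vehicle 48 h replicate 3 was low for Cox4i1 (7.63), Sdhc (4.28) and Uqcr10 (7.09), and vehicle 48 h replicate 4 was high for Atp5o (8.1) and Sdhb (7.63). IGF1 48 h replicate 1 was low for Atp5g1 (7.8) and Atp5md (6.45), IGF1 48 h replicate 2 was high for Atp5b (8.23), and IGF1 168 h replicate 4 was low for Cox6b2 (-0.67).

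The difference of IGF1 from vehicle differed between 168 h and 24 h, by a test of that change, for Sdhc (-0.64), Sdha (-0.58), Cox8b (-0.56), Uqcr10 (-0.50), Atp5pb (-0.50) and Cox4i1 (-0.46). The within-array difference of Cox6a2 and Cox6a1 changed by -0.50 between the same times. Over all 3 times the F-test was passed by Cox4i1 (limma adjusted p = 0.0368) and by Cox6a2 minus Cox6a1 (limma adjusted p = 0.0288).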

How the results depend on the processing

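The 23 higher genes at 24 h became 11 with no filter on dim probes, 1 with only the compared arrays and 2 to 25 when single arrays were left out. Over all genes, 1755 of 23462, 947 of 15875 and 1203 to 2508 of 15875 passed in these fits. With only the compared arrays, 0 genes passed the change from 24 h to 168 h, 2 passed in vehicle hearts from 48 h to 168 h, 4 passed in them from 24 h to 168 h, and 0 isoform pairs passed. After quantile normalization the vehicle counts were 13 (48 h to 168 h) and 16 (24 h to 168 h), the IGF1 counts 10 and 20, and the F-test count 0. With slide as a block, 3 passed in IGF1 hearts from 48 h to 168 h, 12 for the change to 168 h and 2 in the F-test. With array weights these were 8, 19 and 17, and 4 for the change to 48 h. With no filter the change to 168 h and the F-test were passed by 0 genes and 1 isoform pair passed. The mean of probes gave 3 for the change to 168 h, probes well above background on all arrays gave 2 in the F-test, and the unadjusted exact permutation test called 4 pairs.

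Leaving out single arrays gave 4 to 10 genes in vehicle hearts from 24 h to 168 h, 3 to 5 in IGF1 hearts from 48 h to 168 h, 0 to 2 and 0 to 31 for the changes to 48 h and 168 h, 0 to 28 in the F-test and 0 to 3 pairs. Quantile normalization turned the sign in vehicle hearts from 24 h to 168 h for Atp5g2 (0.022), Atp5l (0.19), Atp5md (0.047), Atp5mpl (0.25), Atp5pb (0.26), Cox7a2 (0.24) and Cox8a (0.24), from 48 h to 168 h for Atp5j (0.22) and Cox8a (0.028), and in IGF1 hearts from 24 h to 168 h for Cox6a1 (0.011) and Cox8a (0.24). The cause was not tested. With the replicate block 22 genes rose at 24 h, 0 passed at 48 h or 168 h, 4 passed the change to 168 h and 1 the F-test. Of 13637 values of single genes and isoform pairs under an alternative, 12372 kept their side of the threshold and, where the test is signed, their direction. Another 640 changed sign without passing in either setting, 384 lost the call, 230 gained one, and 11 turned with a call in at least 1 setting. Leaving out the arrays that stood apart in counts of the gene lists was chosen after seeing the data. Signal over background limits Cox7b2 most.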

Other observations

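At 24 h, 9 of 10 cell cycle genes were lower in IGF1 hearts than in vehicle hearts, with a median difference of -1.03 (7 without IGF1 24 h replicate 1). Their array means lay between 0.19 and 0.54 in IGF1 hearts and between 0.38 and 1.71 in vehicle hearts, which overlap. Of 7 T and NK cell markers 5 fell, with a median of -0.97 (4 without IGF1 24 h replicate 1). Of 5 B cell markers 3 fell, with a median of -1.12 (3 without that array as well). By limma, 0 of 10 fibroblast markers passed (4 at an unadjusted p under 0.05, median -0.18), 0 of 10 endothelial markers (3 unadjusted, median 0.12) and 0 of 5 erythrocyte genes (0 unadjusted, median -0.56). Of 10 smooth muscle and pericyte markers 1 rose and 1 fell, of 11 neutrophil markers 1 rose, and of 5 adipocyte markers 1 rose. Over all genes, 8.76% were higher and 7.26% lower at 24 h, so the smooth muscle and neutrophil counts lay near that share. At 48 h and 168 h, 0 genes of any of these lists passed between IGF1 and vehicle hearts, where 0.0126% and 0% of all genes did. At 48 h, 5 of 7 T and NK cell markers (median -0.34) and 3 of 5 B cell markers (median -0.50) had an unadjusted p under 0.05. At 168 h it was 0 in both lists. The other lists named above in this section held at most 1 such gene at either time. Of 9 dendritic cell and MHC class II markers, it was 7 at 48 h (median -0.70) and 6 at 168 h (median -0.69). Of 12 monocyte and macrophage markers, it was 3 at 48 h (median -0.17) and 4 at 168 h (median 0.26). In both of these lists 0 passed after adjustment.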
